A study of Mus musculus with 6 samples.

Results

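The genes of Mediator and of CCR4-NOT, protein complexes that act at the start and at the end of a messenger RNA's life, were followed in mouse colon tumours. They were chosen by name: every gene whose symbol starts with Med or Cnot and a digit, together with Ccnc, Cdk8 and Cdk19. All 44 such genes were measured, 33 of Mediator and 11 of CCR4-NOT, of 19938 genes in all. No measured value enters this rule, but the set was proposed with results of the same comparison known, so its values below are a description and not independent evidence.

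Gene expression was measured on arrays in 6 colon tumours taken at 20 weeks of age, 3 from mice of genotype Dnmt1chip/c; ApcMin/+ and 3 from mice of genotype Dnmt1chip/+; ApcMin/+. Chip is a hypomorphic and c a knockout allele of Dnmt1, the gene of the enzyme that copies DNA methylation onto new DNA strands, and the design text describes less methylation at pericentromeric satellite repeats in Dnmt1chip/c mice and wild-type levels in Dnmt1chip/+ mice. Both groups carry 1 chip allele and ApcMin, which cuts short the tumour suppressor protein Apc, and both received 2% (w/v) dextran sodium sulfate, which injures the colon and promotes tumours, from 6 weeks of age, so no tumour here is wild type for Dnmt1. The mice were first-generation hybrids of a C57BL/6 parent with c and ApcMin and a 129Sv4 parent with chip. The alleles are not limited to a cell type, and the arrays read whole tumours. Nothing in the labels shows that each tumour is from a mouse of its own. All 3 Dnmt1chip/c tumours share a number in their descriptions, as do 2 of the 3 Dnmt1chip/+ tumours, so the errors given measure the spread between these tumours.

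Mediator is a large assembly that carries signals from transcription factors bound at enhancers to RNA polymerase II at the promoter. Its head and middle modules contact the polymerase, its tail module binds many of the transcription factors, and a separable kinase module made of CDK8 or CDK19, cyclin C, MED12 or MED12L and MED13 or MED13L tunes its activity. CDK8 is known as an oncogene of human colorectal cancer that acts with beta-catenin, the effector of the Wnt pathway that loss of Apc turns on. CCR4-NOT removes poly(A) tails from messenger RNAs, the step that usually starts their decay, through catalytic subunits held on the scaffold protein CNOT1.

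Promoter sequence is shown for the genes with the clearest differences, because the genotype alters the enzyme that maintains methylation at CpG dinucleotides. RefSeq promoter windows of the GRCm38.p6 build were found for 37 of the 44 genes. The 4 windows below are the 250 bases before the annotated start, for the 3 single-start genes with the smallest adjusted p and for Ccnc, the single-start gene with the highest difference. They are written 5′ to 3′ on the gene's strand, with CpG dinucleotides in capitals.
Med18, chr4:132463922-132464171, minus strand: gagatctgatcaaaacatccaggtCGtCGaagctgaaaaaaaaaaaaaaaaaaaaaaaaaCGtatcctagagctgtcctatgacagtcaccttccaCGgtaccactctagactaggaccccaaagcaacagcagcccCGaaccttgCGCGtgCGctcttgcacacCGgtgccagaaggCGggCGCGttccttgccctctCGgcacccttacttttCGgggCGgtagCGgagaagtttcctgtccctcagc
Cnot9, chr1:74505810-74506059, plus strand: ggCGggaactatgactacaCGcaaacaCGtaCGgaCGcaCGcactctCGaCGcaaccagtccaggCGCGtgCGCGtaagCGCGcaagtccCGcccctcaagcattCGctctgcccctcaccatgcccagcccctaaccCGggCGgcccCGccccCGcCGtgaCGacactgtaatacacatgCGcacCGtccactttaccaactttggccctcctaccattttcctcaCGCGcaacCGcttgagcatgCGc
Cnot6, chr11:49712723-49712972, minus strand: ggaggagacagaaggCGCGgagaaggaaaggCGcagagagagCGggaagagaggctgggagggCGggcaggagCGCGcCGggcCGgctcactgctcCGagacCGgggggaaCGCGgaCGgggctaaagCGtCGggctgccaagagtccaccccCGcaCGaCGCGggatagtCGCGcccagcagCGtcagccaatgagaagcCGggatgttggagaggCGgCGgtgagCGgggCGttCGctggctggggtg
Ccnc, chr4:21727451-21727700, plus strand: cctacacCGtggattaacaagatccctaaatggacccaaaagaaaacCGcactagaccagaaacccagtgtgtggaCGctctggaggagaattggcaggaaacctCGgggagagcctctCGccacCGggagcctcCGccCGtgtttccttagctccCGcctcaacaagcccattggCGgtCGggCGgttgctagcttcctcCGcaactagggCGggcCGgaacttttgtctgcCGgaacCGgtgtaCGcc
These windows hold 16 CpGs for Med18, 28 for Cnot9, 29 for Cnot6 and 18 for Ccnc. Over the 47 windows of the 37 genes the median was 18 CpGs, with a range of 3 to 51, against a median of 6 over all 32841 windows of the table. The 26 windows of genes called lower had a median of 21.5 and the 21 windows of the others a median of 18, so CpG-rich windows were found for genes of both kinds. Methylation itself was not measured. CpGs and the motifs below were counted against all windows, not against windows of genes with a similar expression level. The ETS core motif CCGGAAG, searched on both strands and containing a CpG of its own, stood in 9 of the 47 windows (19.1%), against 6.91% of all windows. It was in none of the 4 windows printed. Of 4 other motifs searched on both strands, the TATA motif TATAAA stood in 3 windows (6.38%, against 12.4% of all windows), the CRE motif TGACGTCA in 1 (2.13%, against 1.55%), and the NRF1 and YY1 motifs in none (0.783% and 0.603% of all windows).

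Values are taken as log2 values, deposited with every probe set centred to a median of 0 across the tumours, so a value shows how far a tumour lay from that median and not how strongly the gene was expressed. Where the groups do not overlap, centring makes the highest value of the lower group and the lowest of the higher group equal in size and opposite in sign, for genes with 1 probe set. Differences are Dnmt1chip/c minus Dnmt1chip/+ tumours on the log2 scale, with standard errors and adjusted p-values from limma over all 19938 genes, and a gene was called at an adjusted p under 0.05. The exact permutation test of a single gene in 3 against 3 tumours cannot go below p = 0.1. Dnmt1 stood at -0.37, -0.48 and -0.42 in the Dnmt1chip/c tumours, against 0.44, 0.52 and 0.37 in the Dnmt1chip/+ tumours, a difference of -0.87 ± 0.063 (SE; limma, adjusted p = 0.000313). Whether its probes fall inside what chip and c alter is not given in the sources used here, so this does not check the genotypes.

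Subunit genes of both complexes were lower in the Dnmt1chip/c tumours. Of the 44 genes 24 were called lower and none higher in limma, with 30 lower and none higher at an unadjusted p under 0.05. Over all genes 21.3% were called lower and 10.7% higher. The median difference of the 44 was -0.26, a 1.2-fold lower level, against -0.0058 over all genes. The highest Dnmt1chip/c value lay below the lowest Dnmt1chip/+ value in 36 of the 44 genes (28.5% of all genes) and the groups overlapped in the other 8. In bulk tumours, fewer cells of a type and less RNA per cell cannot be told apart.

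Most of these genes seem to have had bright probe sets, and bright genes were called lower more often than all genes. From the steps of the deposited numbers, 40 of the 44 genes were inferred to have been at 8 or higher on the log2 scale in each tumour before they were centred, an inference that a dimmer gene can pass by chance. Of these 40 genes 20 were called lower, or 50%, and the groups did not overlap in 32. Among all 10105 genes of that kind 34.0% were called lower and 44.2% had all Dnmt1chip/c values below the Dnmt1chip/+ values, with a median difference of -0.12. Leaving out Dnmt1chip/+ replicate 1 lowered the number of called genes among the 44 to 14, 9 of Mediator and 5 of CCR4-NOT, and without Dnmt1chip/+ replicate 2 the CCR4-NOT count was also 5. Over all genes the number called lower was 4256, and 2792 without Dnmt1chip/+ replicate 1. The Dnmt1chip/+ tumour with the lowest value, nearest to the other group, was replicate 3 in 30 of the 44 genes, and the Dnmt1chip/c tumour with the highest value was replicate 3 in 21 and replicate 1 in 17.

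**Figure D1:**
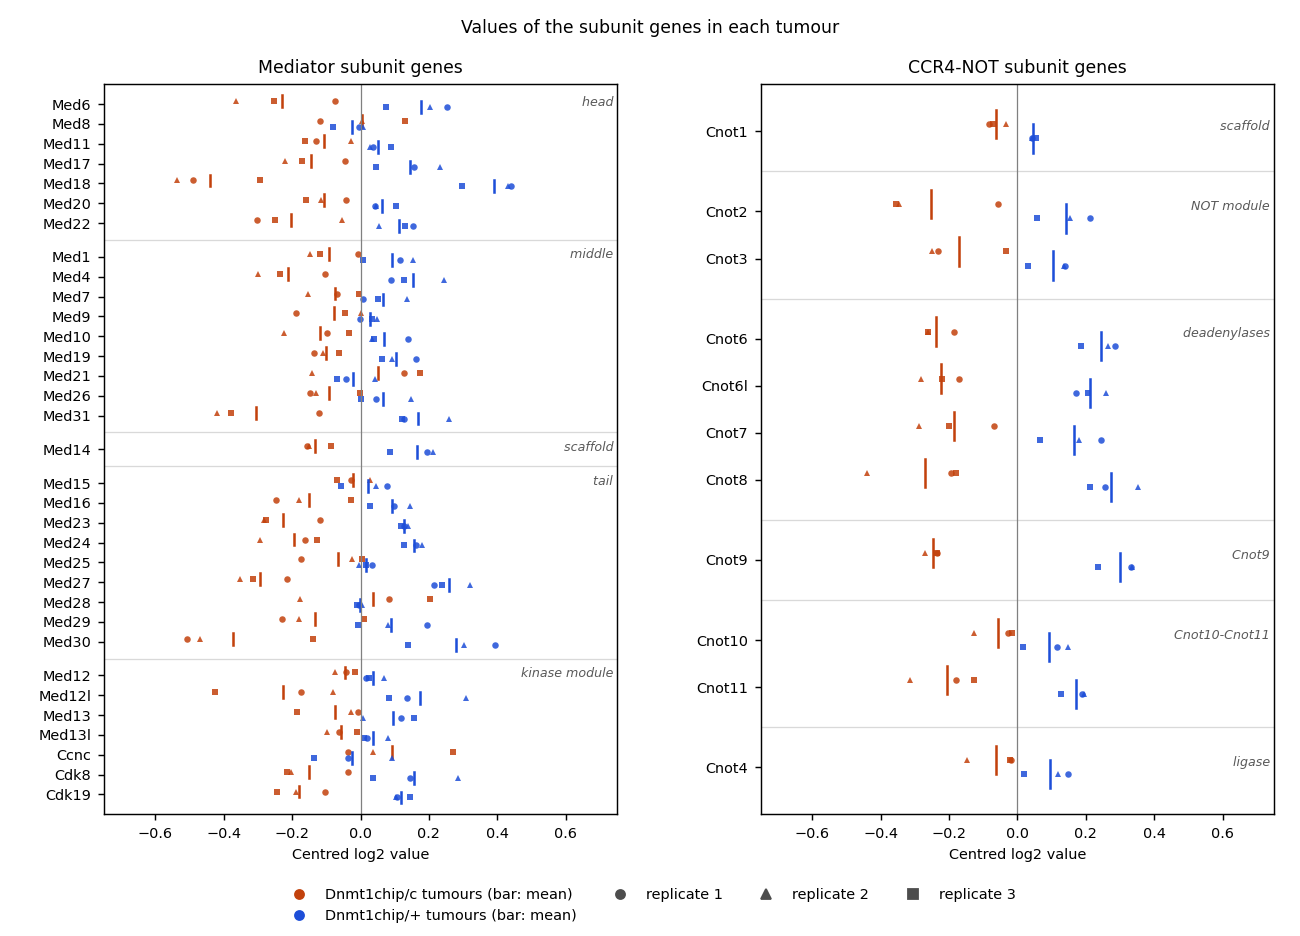
Centred log2 value of each subunit gene in each tumour, by complex and module; points are tumours, with a shape for each replicate, and vertical bars are group means. The Dnmt1chip/c tumours lie left of the Dnmt1chip/+ tumours in 36 of the 44 genes, all 11 CCR4-NOT genes among them, and in 28.5% of all genes.

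In CCR4-NOT the tumour groups lay apart in every gene. All 11 genes had every Dnmt1chip/c value below every Dnmt1chip/+ value. The same held for 28.5% of all genes and for 44.2% of all genes inferred to be at 8 or higher. Of the 11 genes 8 were called lower, against 21.3% of all genes, and the median difference was -0.38, a 1.3-fold lower level. Among genes inferred to be at 8 or higher 7 of 10 were called (70%), against 34.0% of all such genes. The mean of the 11 centred values was -0.13, -0.25 and -0.16 in the Dnmt1chip/c tumours and 0.19, 0.20 and 0.11 in the Dnmt1chip/+ tumours. Whether the shift differs in size between CCR4-NOT and Mediator was not tested.

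The genes of all 4 catalytic subunits were called lower, with a median difference of -0.46. Cnot6 and Cnot6l encode deadenylases of the CCR4 type. Cnot6 stood at -0.19, -0.26 and -0.26 in the Dnmt1chip/c tumours, against 0.28, 0.27 and 0.19 in the Dnmt1chip/+ tumours. It fell by 0.48 ± 0.057 (SE; limma, adjusted p = 0.00137), or 1.4-fold, a gap several times the spread within either group. Cnot6l stood at -0.17, -0.28 and -0.22 in the Dnmt1chip/c tumours, against 0.17, 0.26 and 0.21 in the Dnmt1chip/+ tumours, and fell by 0.44 ± 0.058 (adjusted p = 0.00206). Cnot7 and Cnot8 encode the deadenylases of the CAF1 type, which take the place of each other in the complex. Cnot8 stood at -0.19, -0.44 and -0.18 in the Dnmt1chip/c tumours, against 0.25, 0.35 and 0.21 in the Dnmt1chip/+ tumours, fell by 0.54 ± 0.086 (adjusted p = 0.00386), and was lowest in Dnmt1chip/c replicate 2. Its 2 probe sets gave -0.58 and -0.51. Cnot7 stood at -0.067, -0.29 and -0.20 in the Dnmt1chip/c tumours, against 0.24, 0.18 and 0.067 in the Dnmt1chip/+ tumours. Its groups came close, at -0.067 in Dnmt1chip/c replicate 1 and 0.067 in Dnmt1chip/+ replicate 3, and it fell by 0.35 ± 0.079 (adjusted p = 0.0148). This call was lost without Dnmt1chip/+ replicate 1 and without Dnmt1chip/+ replicate 2, where the adjusted p reached 0.0632.

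Cnot9 encodes the subunit that docks tryptophan-bearing partners such as the TNRC6 proteins of microRNA silencing. It stood at -0.23, -0.27 and -0.24 in the Dnmt1chip/c tumours, against 0.33, 0.34 and 0.23 in the Dnmt1chip/+ tumours, and fell by 0.55 ± 0.056 (SE; limma, adjusted p = 0.000821), 1.46-fold. The 3 Dnmt1chip/c values lay close together. Cnot2 and Cnot3 form the NOT module, which binds the end of CNOT1 and contacts many regulators. Cnot2 stood at -0.056, -0.35 and -0.36 in the Dnmt1chip/c tumours, against 0.21, 0.15 and 0.056 in the Dnmt1chip/+ tumours. Cnot3 stood at -0.23, -0.25 and -0.032 in the Dnmt1chip/c tumours, against 0.14, 0.14 and 0.032 in the Dnmt1chip/+ tumours. In each gene 1 Dnmt1chip/c tumour lay near the Dnmt1chip/+ tumours, replicate 1 for Cnot2 and replicate 3 for Cnot3. Cnot2 fell by 0.39 ± 0.095 (adjusted p = 0.0189) and Cnot3 by 0.27 ± 0.077 (adjusted p = 0.0322). The call of Cnot2 was lost without Dnmt1chip/c replicate 2 or 3 and without Dnmt1chip/+ replicate 1 or 2. That of Cnot3 was lost under quantile normalization, with each array centred on its median, and without Dnmt1chip/c replicate 1 or 2 or Dnmt1chip/+ replicate 1 or 2.

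The scaffold gene was among those not called. Cnot1 stood at -0.082, -0.033 and -0.07 in the Dnmt1chip/c tumours, against 0.042, 0.044 and 0.055 in the Dnmt1chip/+ tumours. The difference was -0.11 ± 0.05 (SE; limma, adjusted p = 0.151; 95% confidence interval -0.23 to 0.01), which leaves room for a decrease as large as 0.23. Its 2 probe sets disagreed, with -0.05 (adjusted p = 0.571 over all named probe sets) and -0.17 (adjusted p = 0.0428). Cnot11 and Cnot10 encode a pair that binds the start of CNOT1. Cnot11 stood at -0.18, -0.31 and -0.13 in the Dnmt1chip/c tumours, against 0.19, 0.19 and 0.13 in the Dnmt1chip/+ tumours, and fell by 0.38 ± 0.067 (adjusted p = 0.00582). Cnot10 was at -0.027, -0.13 and -0.015 in the Dnmt1chip/c tumours, against 0.12, 0.15 and 0.015 in the Dnmt1chip/+ tumours, and differed by -0.15 ± 0.064 (adjusted p = 0.121). Cnot4, a ubiquitin ligase that is only loosely bound to the complex in mammals, stood at -0.018, -0.15 and -0.022 in the Dnmt1chip/c tumours, against 0.15, 0.12 and 0.018 in the Dnmt1chip/+ tumours, with a difference of -0.16 ± 0.066 (adjusted p = 0.115). Neither Cnot10 nor Cnot4 passed, although their groups did not overlap.

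**Figure D2:**
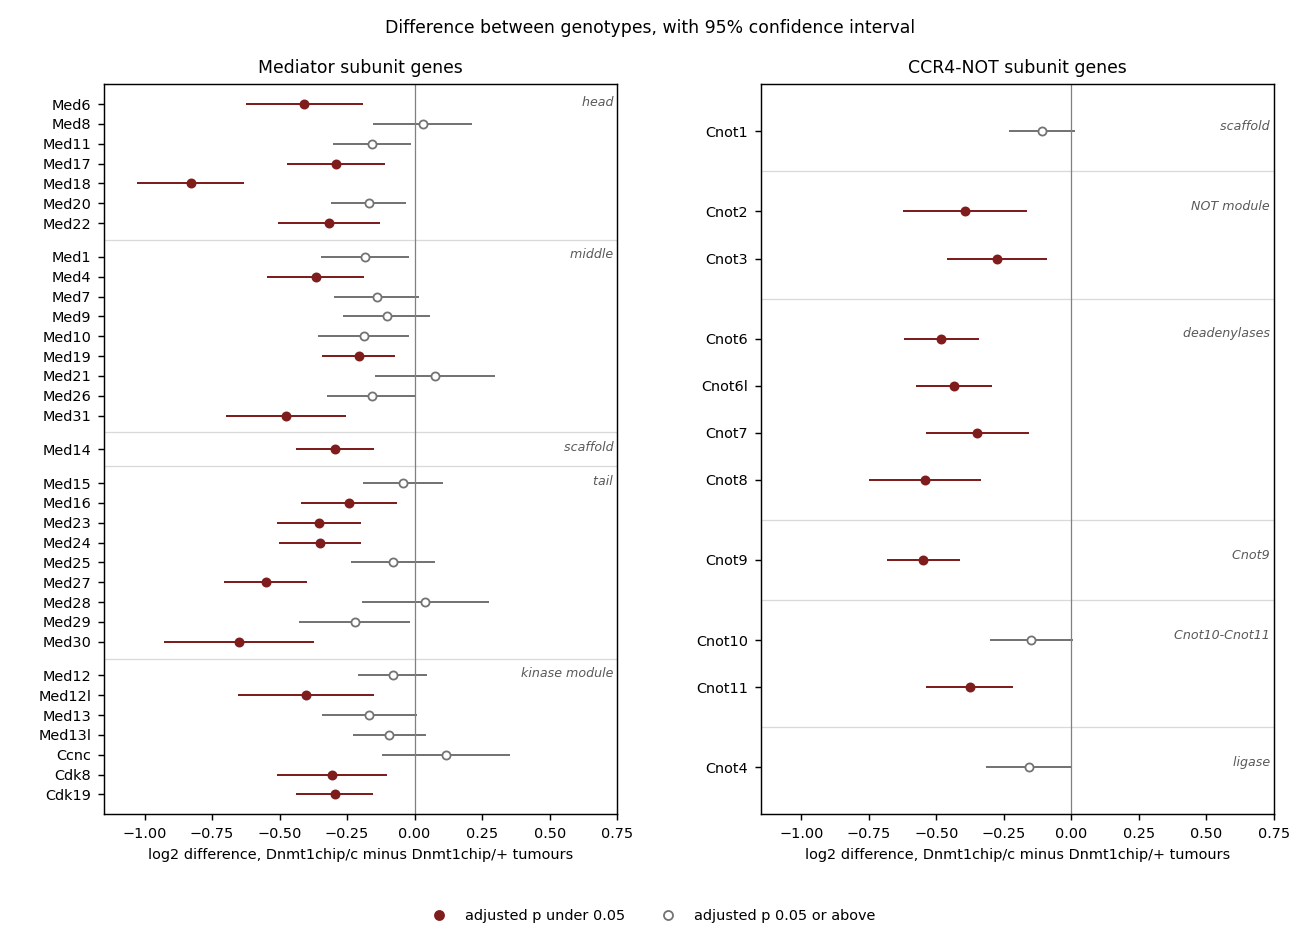
Difference in log2 value between Dnmt1chip/c and Dnmt1chip/+ tumours for each subunit gene (point) with its 95% confidence interval (line), by complex and module; filled points have an adjusted p under 0.05. All filled points are negative, from -0.83 for Med18 to -0.21 for Med19, and the 4 genes with a positive difference are Ccnc, Med21, Med28 and Med8.

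Mediator genes were lower in part. Of 33 genes 16 were called lower and none higher, and the median difference was -0.21, a 1.15-fold lower level. In 25 of the 33 all Dnmt1chip/c values lay below the Dnmt1chip/+ values, against 28.5% of all genes. At 8 or higher this held for 22 of 30, against 44.2% of all such genes. By module, 4 of 7 head genes, 3 of 9 middle genes, 5 of 9 tail genes and 3 of 7 kinase module genes were called, along with Med14, where 21.3% of all genes were. Among genes inferred to be at 8 or higher, of which 34.0% were called lower in all, the count was 3 of 6 head genes (50%), 2 of 8 middle genes (25%), 5 of 9 tail genes (55.6%) and 2 of 6 kinase module genes (33.3%). The kinase module thus lay at about that share, the middle module below it, and Mediator as a whole, at 13 of 30 (43.3%), above it. With so few genes in a module, single genes move these shares widely. The head count was 2 without Dnmt1chip/c replicate 3 and 1 without Dnmt1chip/+ replicate 1. The kinase module count was 1 without Dnmt1chip/c replicate 3, Dnmt1chip/+ replicate 1 or Dnmt1chip/+ replicate 2. Median differences were -0.29 in the head, -0.24 in the tail, -0.18 in the middle and -0.17 in the kinase module. Med14 encodes the backbone that joins the head, middle and tail modules. It stood at -0.16, -0.15 and -0.087 in the Dnmt1chip/c tumours, against 0.19, 0.21 and 0.087 in the Dnmt1chip/+ tumours, without overlap, and fell by 0.30 ± 0.06 (SE; limma, adjusted p = 0.00943).

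In the head module Med18, whose protein pairs with MED20, changed most of all 44 genes. Med18 stood at -0.49, -0.54 and -0.30 in the Dnmt1chip/c tumours, against 0.44, 0.43 and 0.30 in the Dnmt1chip/+ tumours. The groups were far apart beside their spread, and it fell by 0.83 ± 0.082 (SE; limma, adjusted p = 0.000751), 1.78-fold, nearly as much as Dnmt1 itself. Med18 was not among the genes inferred to be at 8 or higher. Its partner gene Med20 differed by -0.17 ± 0.057 (adjusted p = 0.0611; 95% confidence interval -0.30 to -0.035). Med6, a head subunit next to the polymerase, stood at -0.075, -0.36 and -0.25 in the Dnmt1chip/c tumours, against 0.25, 0.20 and 0.075 in the Dnmt1chip/+ tumours, and fell by 0.41 ± 0.089 (adjusted p = 0.013). Med22 stood at -0.30, -0.055 and -0.25 in the Dnmt1chip/c tumours, against 0.15, 0.055 and 0.13 in the Dnmt1chip/+ tumours. Med17, the central head subunit, stood at -0.045, -0.22 and -0.17 in the Dnmt1chip/c tumours, against 0.16, 0.23 and 0.045 in the Dnmt1chip/+ tumours. The groups were closest at replicate 2 of each group in Med22, and at Dnmt1chip/c replicate 1 and Dnmt1chip/+ replicate 3 in Med17. Med22 fell by 0.32 (adjusted p = 0.0207) and Med17 by 0.29 (adjusted p = 0.0244). The call of Med6 was lost without Dnmt1chip/+ replicate 1. That of Med22 was lost without Dnmt1chip/c replicate 3 or Dnmt1chip/+ replicate 1 or 3, and that of Med17 without Dnmt1chip/c replicate 2 or 3 or Dnmt1chip/+ replicate 1 or 2. Med11 and Med8 were not called, at -0.16 and 0.031.

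In the tail module Med30 and Med27 had the largest decreases. Med30, a subunit that budding yeast Mediator lacks, stood at -0.51, -0.47 and -0.14 in the Dnmt1chip/c tumours, against 0.39, 0.30 and 0.14 in the Dnmt1chip/+ tumours. Replicate 3 of each group was the least shifted, and Med30 fell by 0.65 ± 0.12 (SE; limma, adjusted p = 0.00586), 1.57-fold. Med27 stood at -0.21, -0.35 and -0.31 in the Dnmt1chip/c tumours, against 0.21, 0.32 and 0.24 in the Dnmt1chip/+ tumours, with tight groups, and fell by 0.55 ± 0.063 (adjusted p = 0.00119). Med23, which receives signals through the factor ELK1, stood at -0.12, -0.28 and -0.28 in the Dnmt1chip/c tumours, against 0.13, 0.14 and 0.12 in the Dnmt1chip/+ tumours. Med24, its neighbour in the tail, stood at -0.16, -0.29 and -0.13 in the Dnmt1chip/c tumours, against 0.16, 0.18 and 0.13 in the Dnmt1chip/+ tumours. Their decreases of 0.35 and 0.35 (adjusted p = 0.00621 and 0.00615) were almost the same size. Med16 fell by 0.24 (adjusted p = 0.0434), a call that was lost under quantile normalization, with each array centred on its median and without any tumour other than Dnmt1chip/c replicate 3. Med29 (-0.22), Med25 (-0.08), Med15 (-0.044), which binds SREBP factors, and Med28 (0.039) had overlapping groups and were not called.

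In the middle module 3 of 9 genes were called (33.3%, against 21.3% of all genes). Of its 8 genes at 8 or higher 2 were called (25%, against 34.0% of all such genes). Med31, whose protein joins MED7 near the polymerase, stood at -0.12, -0.42 and -0.38 in the Dnmt1chip/c tumours, against 0.13, 0.26 and 0.12 in the Dnmt1chip/+ tumours, without overlap. It fell by 0.47 ± 0.092 (SE; limma, adjusted p = 0.00822), and Dnmt1chip/c replicate 1 was the least shifted. Med4 stood at -0.10, -0.30 and -0.24 in the Dnmt1chip/c tumours, against 0.088, 0.24 and 0.13 in the Dnmt1chip/+ tumours, and fell by 0.37 ± 0.075 (adjusted p = 0.00983). Its 2 probe sets gave -0.17 (adjusted p = 0.0757) and -0.56 (adjusted p = 0.00959), so the size of its decrease depends on the probe set. Med19 stood at -0.14, -0.11 and -0.062 in the Dnmt1chip/c tumours, against 0.16, 0.091 and 0.062 in the Dnmt1chip/+ tumours, and fell by 0.21 ± 0.056 (adjusted p = 0.0286), a call lost under quantile normalization and without Dnmt1chip/c replicate 1 or 2 or Dnmt1chip/+ replicate 1 or 2. Med10, at -0.099, -0.23 and -0.033 in the Dnmt1chip/c tumours, against 0.14, 0.033 and 0.039 in the Dnmt1chip/+ tumours, did not pass, with a difference of -0.19 (adjusted p = 0.0816). The 5 other genes were not called either. They were Med1, which contacts nuclear receptors (-0.18), Med26, which recruits elongation factors (-0.16), Med7 (-0.14), Med9 (-0.10) and Med21 (0.075).

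In the kinase module the genes of both alternative kinases were called lower and the gene of their cyclin was not called. Cdk8 stood at -0.036, -0.20 and -0.22 in the Dnmt1chip/c tumours, against 0.14, 0.28 and 0.036 in the Dnmt1chip/+ tumours, and fell by 0.31 ± 0.085 (SE; limma, adjusted p = 0.031), with a narrow gap between Dnmt1chip/c replicate 1 and Dnmt1chip/+ replicate 3. This call was lost under quantile normalization and without Dnmt1chip/c replicate 2 or 3 or Dnmt1chip/+ replicate 1 or 2. Cdk19 stood at -0.10, -0.19 and -0.24 in the Dnmt1chip/c tumours, against 0.11, 0.10 and 0.14 in the Dnmt1chip/+ tumours, with less spread, and fell by 0.30 ± 0.059 (adjusted p = 0.00888). Ccnc, the gene of cyclin C, stood at -0.036, 0.036 and 0.27 in the Dnmt1chip/c tumours, against -0.036, 0.093 and -0.13 in the Dnmt1chip/+ tumours. Its groups overlapped widely and the difference was 0.12 ± 0.099 (adjusted p = 0.431; 95% confidence interval -0.12 to 0.35).

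Med12 activates the kinase and Med13 ties the module to the rest of Mediator, and each has a paralogue that can take its place. Med12l stood at -0.18, -0.082 and -0.42 in the Dnmt1chip/c tumours, against 0.13, 0.31 and 0.082 in the Dnmt1chip/+ tumours. It was lowest in Dnmt1chip/c replicate 3 and fell by 0.40 ± 0.10 (SE; limma, adjusted p = 0.0249), a call lost without that tumour and without Dnmt1chip/+ replicate 1 or 2. Med12 stood at -0.043, -0.075 and -0.016 in the Dnmt1chip/c tumours, against 0.016, 0.07 and 0.025 in the Dnmt1chip/+ tumours, a difference of -0.082 ± 0.052 (adjusted p = 0.289), with all values close to 0. Med13, at -0.0068, -0.028 and -0.19 in the Dnmt1chip/c tumours, against 0.12, 0.0068 and 0.16 in the Dnmt1chip/+ tumours, differed by -0.17 (adjusted p = 0.131) and Med13l by -0.093 (adjusted p = 0.256). Neither Med13 nor Med13l was called.

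The paralogue pairs were compared directly, as the difference between the 2 genes within each tumour. Over 5 pairs, the exact permutation test, two-sided and adjusted over the 5, called none, and with 3 against 3 tumours it could not have done so. Med12 minus Med12l was 0.13, 0.0066 and 0.41 in the Dnmt1chip/c tumours, against -0.12, -0.24 and -0.057 in the Dnmt1chip/+ tumours, a difference of 0.32 (exact p = 0.1, adjusted p = 0.5). The groups did not overlap in this pair, but Dnmt1chip/c replicate 3 was far above the other values. Cnot7 minus Cnot8 differed by 0.19 (exact p = 0.2, adjusted p = 0.5), and the other 3 pairs by -0.01 for Cdk8 minus Cdk19, -0.046 for Cnot6 minus Cnot6l and -0.074 for Med13 minus Med13l, with overlapping groups. Whether probes of a gene also bind its paralogue's transcript was not tested.

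**Figure D3:**
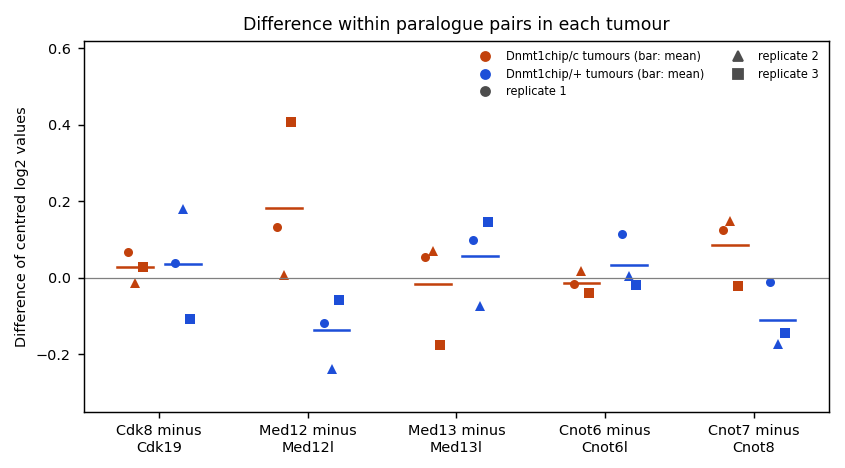
Difference of centred log2 values within each paralogue pair (vertical axis) in each tumour; points are tumours, with a shape for each replicate, and bars are group means. The groups separate for Med12 minus Med12l, where the Dnmt1chip/c tumours are at 0.0066 to 0.41, and overlap for Cdk8 minus Cdk19.

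Of the gene lists that work with Mediator at the promoter, the general transcription factors had a larger share called lower than all genes, and the polymerase and elongation lists had shares near that of all bright genes (34.0%). Of 30 measured general transcription factor genes, which assemble with the polymerase at the start site, 15 were called lower (50%, and 53.8% of the 26 at 8 or higher) and none higher, 24 had a negative difference, and the median was -0.25. Gtf2h5 and Gtf2a1 of the factors TFIIH and TFIIA fell by 0.48 ± 0.053 (SE; limma, adjusted p = 0.00105) and 0.46 ± 0.075 (adjusted p = 0.00413), and Gtf2e2 of TFIIE by 0.46. Of the 12 RNA polymerase II subunit genes 4 were lower (33.3%, and 40% of the 10 at 8 or higher), with Polr2g at -0.53 and the large subunits Polr2a and Polr2b at -0.25 and -0.32. The calls of Polr2a and Polr2b were both lost without Dnmt1chip/+ replicate 1 or 2, and that of Polr2b also without Dnmt1chip/c replicate 2 or Dnmt1chip/+ replicate 3. Among 21 measured genes of elongation kinases and the super elongation complex 7 were lower (33.3%, and 30% of the 20 at 8 or higher) and 2 higher, with Mllt3 (-0.50), Mllt1 (-0.40) and Ell3 (-0.50) at the smallest p. The 2 higher genes were Ell (0.34) and Aff1 (0.19), named after their values were seen. Without Dnmt1chip/+ replicate 1 the lower genes numbered 6 of the general factors, 1 of the polymerase and 3 of the elongation list, and without Dnmt1chip/+ replicate 2 they numbered 9, 1 and 4. Without Dnmt1chip/c replicate 2 they numbered 2 of the polymerase and 4 of the elongation list, and without Dnmt1chip/+ replicate 3, 2 of the polymerase.

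Lists of genes that work with CCR4-NOT held calls in both directions, where 21.3% of all genes were lower, 10.7% higher and 34.0% lower at 8 or higher. Of 8 genes listed here as other deadenylases, all 8 of them at 8 or higher, 4 were called lower (50%) and 1 higher. The activity of each protein was not examined. Parn, which trims poly(A) tails, and Toe1, which trims small nuclear RNAs, fell by 0.51 ± 0.095 (SE; limma, adjusted p = 0.00686) and 0.45 ± 0.074 (adjusted p = 0.00436). Noct, which carries a CCR4-like domain, rose by 0.47 ± 0.067 (adjusted p = 0.00267). Of 25 measured genes whose proteins bring CCR4-NOT to transcripts 9 were lower (36%, and 40% of the 20 at 8 or higher) and 5 higher, so the share lower was near that of all bright genes. Zfp36l1, which binds AU-rich elements, fell by 0.71 (adjusted p = 0.00118) and Tnrc6c of microRNA silencing by 0.40 (adjusted p = 0.00419). Zfp36 and Zfp36l2, of the same family as Zfp36l1, went the other way. They rose by 0.26 (adjusted p = 0.0164) and 0.22 (adjusted p = 0.0211), and were named after their values were seen. Cpeb2, a binder of cytoplasmic polyadenylation elements, rose by 0.37 (adjusted p = 0.00419).

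In the steps after deadenylation, 6 of 18 decapping and decay genes were lower (33.3%, and 31.2% of the 16 at 8 or higher) and 1 was higher, a share lower that did not exceed the 34.0% of all bright genes. The higher gene was Dcp2, the decapping enzyme itself, at 0.39, 0.33 and 0.43 in the Dnmt1chip/c tumours, against -0.52, -0.33 and -0.44 in the Dnmt1chip/+ tumours. It rose by 0.81 ± 0.068 (SE; limma, adjusted p = 0.000471), 1.75-fold, with a wide gap between the groups. Dcp1b, a cofactor of that enzyme, fell by 0.41, and Lsm14b, a granule protein, by 0.48 (adjusted p = 0.00445 and 0.00122). Without Dnmt1chip/+ replicate 1 and without Dnmt1chip/+ replicate 2 the lower genes numbered 3 and 3 in this list, 3 and 4 among the CCR4-NOT recruiters and 2 and 2 among the other deadenylases. The last also numbered 2 without Dnmt1chip/c replicate 2 and without Dnmt1chip/c replicate 3.

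**Figure D4:**
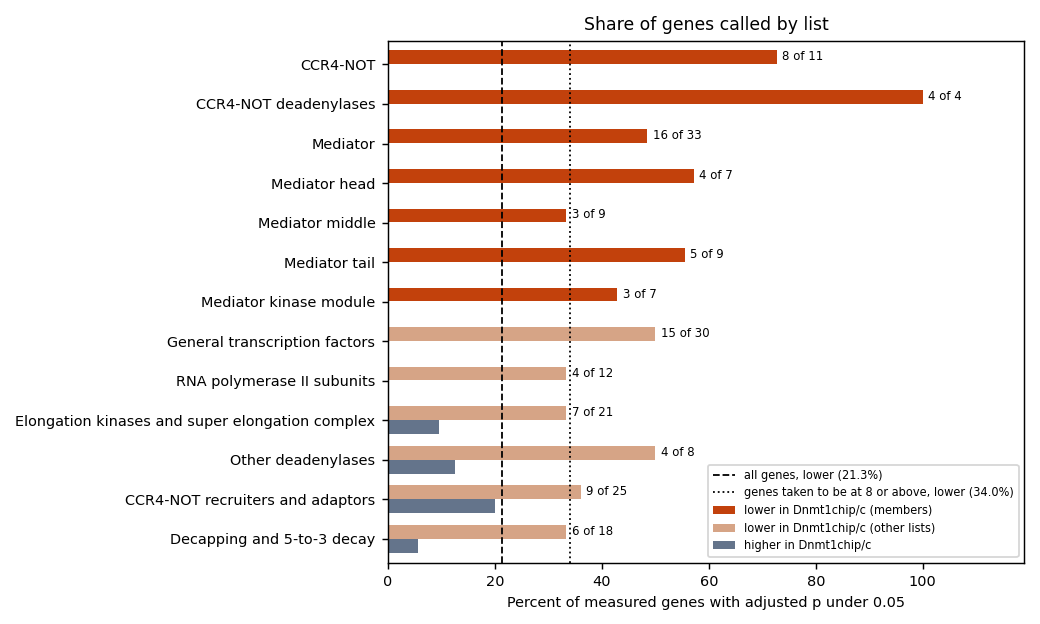
Percent of the measured genes of each list called lower (upper bars, with counts) or higher (lower bars) in Dnmt1chip/c tumours at an adjusted p under 0.05. Dashed and dotted lines mark the share lower among all genes (21.3%) and among genes inferred to be at 8 or higher (34.0%). CCR4-NOT, at 8 of 11, lies right of both, and the Mediator middle module, at 3 of 9, lies between them. Bars count all measured genes, so only the dashed line is on the same footing. Of genes at 8 or higher, 7 of 10 in CCR4-NOT (70%) and 2 of 8 in the middle module (25%) were called lower.

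Markers of several cell types differed between the genotypes as well. Over all genes 21.3% were called lower and 10.7% higher, and 34.0% of those at 8 or higher were called lower. Of 8 epithelial markers, all 8 of them inferred to be at 8 or higher, 6 were higher in the Dnmt1chip/c tumours and none lower. Their mean centred value was 0.13 to 0.27 in the Dnmt1chip/c tumours and -0.16 to -0.15 in the Dnmt1chip/+ tumours. Fibroblast markers were lower in 6 of 10 genes (60%, and 75% of the 8 at 8 or higher) and higher in 1. Their means were -0.50 to -0.078 in Dnmt1chip/c and 0.082 to 0.44 in Dnmt1chip/+ tumours. For the endothelium 5 of 8 markers were lower (62.5%, and 50% of the 6 at 8 or higher) and 1 was higher. Endothelial means were -0.45 to -0.056 in Dnmt1chip/c and 0.058 to 0.20 in Dnmt1chip/+ tumours. Smooth muscle markers were lower in 3 of 8 (37.5%, and 75% of the 4 at 8 or higher). Smooth muscle means were -0.22 to -0.083 in Dnmt1chip/c and 0.074 to 0.28 in Dnmt1chip/+ tumours. Macrophage markers were lower in 4 of 8 (50%, and 57.1% of the 7 at 8 or higher), a count that ran from 0 to 7 when single tumours were left out. Macrophage means were -0.79 to 0.016 in Dnmt1chip/c and -0.0023 to 0.46 in Dnmt1chip/+ tumours. Of 9 measured lymphocyte markers 1 was higher, a share near that of all genes, or 0 to 2 without single tumours. Lymphocyte means were -0.11 to 0.65 in Dnmt1chip/c and -0.16 to 0.21 in Dnmt1chip/+ tumours. Without Dnmt1chip/c replicate 3 the lower fibroblast and endothelial markers numbered 3 and 2, and without Dnmt1chip/+ replicate 2 or 3 the endothelial ones numbered 3. Centred values do not show which markers are absent. The part of these cell types in the shifts of the subunit genes was not tested.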

How the data were processed

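RNA of 6 mouse colon tumours was labelled with an Affymetrix whole-transcript kit and hybridised to 6 arrays, per the labels' protocols. The deposited table holds values, taken as log2, for 28856 probe sets. The authors had centred them so that each probe set has a median of 0, as the values show. The sources used here do not give background correction or normalization, the base of the logarithm is inferred from the number steps, and absolute levels are lost. Depth does not apply to arrays, and the number of tumours limits the precision.

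The 21789 probe sets with exactly 1 gene symbol in the platform annotation were averaged to 19938 genes. The other 1621 had several symbols and 5446 had none. Dnmt1chip/c and Dnmt1chip/+ tumours were compared with limma 3.58.1 in R 4.3.3 (lmFit and eBayes, no covariate), with Benjamini-Hochberg adjustment over all genes and a threshold of 0.05. Genes were taken to be at 8 or higher when their values moved in steps of 2 to the power -20, within 0.1 of a step. Paralogue pairs were compared with exact permutation tests, two-sided.

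The members and lists were chosen with earlier results of these data known. Values in every tumour were given for the 4 largest differences of each Mediator module, all CCR4-NOT subunits, the paralogue pairs, Med14 and Dnmt1, and up to 3 called genes with the smallest p were named per pathway list. Alternatives changed the threshold, the normalization, the blocks and weights, the probe set rule and the tumours included. The comparison was tested on simulated data of 19938 genes with a small set changed, where it recovered 52% of changes of 0.5, 90% of changes of 1 and 2% of changes of 0.25 on the log2 scale, at a lower share of changed genes than measured here.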

Additional observations from a re-analysis of the deposited data

How the results depend on the processing

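All 24 called subunit genes kept their direction in every refit. Their groups did not overlap, so leaving out a single tumour could not turn the direction, and a replicate block leaves the difference unchanged. Of the 24, 12 stayed called in every refit that held them: Med18, Med4, Med31, Med23, Med24, Med27, Med30, Cnot6, Cnot6l, Cnot8, Cnot9 and Cnot11. Of 15 refits Med18 was in 14, and Med4 and Cnot8 in 13. They were left out where only genes at 8 or higher, or with 1 probe set, were fitted. The largest adjusted p of Med4 was 0.0496 (limma). The 24 became 14 at an adjusted p under 0.01, 29 at 0.10 and 20 with quantile normalization. They became 22 with each array centred on its median, 32 with array weights and 29 with the number in the description as a random block. When single tumours were left out they ran from 14 (without Dnmt1chip/+ replicate 1) to 22. Over all genes the number called lower moved too, from 4256 to 2319 at 0.01, 5133 at 0.10 and 3662 with quantile normalization. It was 3845 with each array centred on its median, 5078 with array weights and 2792 to 4270 without single tumours. The random block cannot remove the effect of a shared mouse, because all 3 Dnmt1chip/c tumours have the same number. The correlation estimated for that block was negative, at -0.17, and genes called lower in all rose from 4256 to 5158. Its count of 29 is therefore not a sign of a firmer result. Mediator counted 16, then 9 at 0.01 and 9 to 15 without single tumours. CCR4-NOT counted 8, then 5 at 0.01 and 5 to 8 without single tumours. The pathway lists together counted 49, then 18 at 0.01 and 20 to 47. No pairing by replicate number was assumed. Deviations of same-numbered tumours correlated at -0.31 to -0.22, and those of other tumours across the groups at 0.052 to 0.29. Deviations sum to 0 within each group, which ties these correlations together, so they cannot settle whether the numbers pair the tumours. With a replicate block limma called lower 16 of the 44, 9 of Mediator, 24 of the pathway lists and 2714 of all genes. Med14 and Cdk19 lost their calls in that fit alone. Med16, Med17, Med19, Med22, Cdk8, Cnot3, Polr2a, Polr2b and Stag2 also lost their calls in it, besides the losses given with each gene. The median difference of -0.26 was -0.21 after quantile normalization and -0.21 for genes at 8 or higher. The share called lower was 54.5%, against 21.3% of all genes. Among genes at 8 or higher it was 50%, against 34.0%, a gap of 16 percentage points, in an alternative chosen after seeing the data. No subunit gene was called higher under any alternative. With Med19 and Med27 to Med30 placed in the head module, as older schemes do, the modules counted 7 of 12 head, 2 of 8 middle and 3 of 5 tail genes. Single tumours turned the sign of 4 values that were not called. Without Dnmt1chip/c replicate 3 Med8 was -0.032 (otherwise up to 0.093) and Med28 -0.045 (up to 0.15). Cdk8 minus Cdk19 ran from -0.083 to 0.061 and was 0.010 without Dnmt1chip/c replicate 2. Med13 minus Med13l ran from -0.14 to 0.0058. The cause of these changes was not tested. With 3 tumours a group, decreases near 0.25 on the log2 scale were at the edge of what limma could call.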

Other observations

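Genes of cohesin, the ring complex that holds DNA loops and is known to work with Mediator at enhancers, were called lower at a share near that of all bright genes. Of 10 measured genes of cohesin and its loaders 4 were called lower and none higher, 6 and 0 at an unadjusted p under 0.05, with a median difference of -0.21 in limma, and 21.3% of all genes were called lower. All 10 genes were inferred to be at 8 or higher on the log2 scale, where 40% of the list compares with 34.0% of all such genes. Pds5b, a regulator of the ring, stood at -0.22, -0.56 and -0.25 in the Dnmt1chip/c tumours, against 0.27, 0.33 and 0.22 in the Dnmt1chip/+ tumours, and fell by 0.61 ± 0.099 (SE; limma, adjusted p = 0.00419). Smc3, a core subunit, stood at -0.32, -0.55 and -0.12 in the Dnmt1chip/c tumours, against 0.24, 0.29 and 0.12 in the Dnmt1chip/+ tumours, and fell by 0.55 ± 0.11 (limma, adjusted p = 0.0106). Neither gene's groups overlapped, and Pds5b was lowest in Dnmt1chip/c replicate 2. Stag2, a core subunit often mutated in human cancers, fell by 0.25 (limma, adjusted p = 0.0303), a call lost under quantile normalization and without Dnmt1chip/c replicate 1 or 2 or Dnmt1chip/+ replicate 1 or 2. Without each of these 4 tumours in turn the list had 2 genes called lower.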
